A study of Mus musculus with 8 samples.

Results

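Acyl-CoA thioesterases are the enzymes that split fatty acyl-CoA into free fatty acid and coenzyme A, and 9 of them were listed for study in mouse liver: Acot1, Acot2, Acot3, Acot4, Acot7, Acot8, Acot9, Acot12 and Acot13. A gene was followed through the array probe sets that carry its symbol alone, and where a gene had several, through the one with the highest mean over all arrays. This left 8 of the 9 genes, among 22180 genes measured in the same way. Acot8, a peroxisomal thioesterase, has its symbol only on a probe set that also names Snx21, so no value was read for it. The liver of 4 wild type and 4 knock-in male mice of the C57BL/6J strain was measured on whole-transcript arrays, 1 array per sample. The knock-in carries the E167K coding variant of Tm6sf2, an endoplasmic reticulum protein that takes part in loading very low density lipoprotein with lipid, and wild type animals were littermates. The labels give neither the ages of the mice nor whether the knock-in was homozygous. The text of the series names a high-fat diet for 20 weeks, while the treatment notes of the arrays name either a sucrose-rich diet free of fat or chow for 14 weeks. The diet is therefore not settled, nor is whether all 8 samples shared the same one. That each array came from its own animal is not stated, so p-values reflect the scatter of these 8 samples, which may be partly technical.

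Thioesterases act against the acyl-CoA synthetases: synthetases trap a fatty acid in the cell by joining it to coenzyme A, and thioesterases release it and free the coenzyme for reuse. Each compartment of the hepatocyte has its own set. Acot1 in the cytosol, Acot2 in the mitochondrial matrix and Acot3 and Acot4 in peroxisomes are closely related type I enzymes, and type I thioesterases are known in liver as genes induced by fasting and by the fatty acid receptor PPARα. Acot7, Acot9, Acot12 and Acot13 are type II enzymes with a different fold.

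The type I genes lie side by side in the mouse. In the RefSeq gene table of GRCm38.p6, the protein-coding genes on chromosome 12 run in the order Acot2, Acot1, Acot4, Acot3, Acot5 and Acot6, between Riox1 and Dnal1, with no other protein-coding gene among them. The 250 bases before the annotated start of the first 4 are shown because these genes had their highest values on one common array and their lowest on another. The sequences are RefSeq's, on the plus strand of GRCm38.p6, and 8 of the 9 listed genes had an entry, the exception being Acot13. Capitals mark matches on either strand to CCAAT (the CCAAT box), GGGCGG (the GC box), CACGTG (the E-box) and AGGTCA (the half-site of nuclear receptors such as PPARα).
Acot2 (chr12:83987611-83987860): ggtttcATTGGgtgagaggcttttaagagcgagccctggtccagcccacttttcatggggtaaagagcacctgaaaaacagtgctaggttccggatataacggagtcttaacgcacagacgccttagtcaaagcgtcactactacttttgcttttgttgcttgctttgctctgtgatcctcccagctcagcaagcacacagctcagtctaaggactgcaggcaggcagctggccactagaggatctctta
Acot1 (chr12:84009252-84009501): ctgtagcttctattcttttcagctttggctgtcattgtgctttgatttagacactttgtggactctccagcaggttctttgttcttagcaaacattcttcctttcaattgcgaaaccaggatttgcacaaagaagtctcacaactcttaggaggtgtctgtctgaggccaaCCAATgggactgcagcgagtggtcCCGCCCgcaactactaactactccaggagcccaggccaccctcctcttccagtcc
Acot4 (chr12:84038129-84038378): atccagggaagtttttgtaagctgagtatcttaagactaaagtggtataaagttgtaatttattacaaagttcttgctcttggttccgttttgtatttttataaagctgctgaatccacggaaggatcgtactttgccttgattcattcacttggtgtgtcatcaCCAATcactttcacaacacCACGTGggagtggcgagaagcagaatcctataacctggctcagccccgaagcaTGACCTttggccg
Acot3 (chr12:84051894-84052143): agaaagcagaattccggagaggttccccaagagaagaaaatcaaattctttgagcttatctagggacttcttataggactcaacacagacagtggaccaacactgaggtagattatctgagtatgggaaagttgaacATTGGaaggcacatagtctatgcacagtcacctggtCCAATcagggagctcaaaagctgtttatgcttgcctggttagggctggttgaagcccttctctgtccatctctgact
All 4 windows hold a CCAAT box, as do 33.8% of the 32851 windows of the same length in the table. Acot4 alone of the 4 holds the E-box, at 66 bases before the start, and the half-site, at 13 bases before it; 6.02% and 14% of all windows hold these. A pair of half-sites 1 base apart, AGGTCANAGGTCA, was in none of the members' windows and in 0.0335% of all windows. Acot1 also holds a GC box, found in 32.7% of windows, at 55 bases before its start. Acot3 has a second annotated start 7 bases further on, which is not shown. These matches describe letters in these windows and were not set against the array values.

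The arrays had medians of 3.73 to 3.80 on the log2 scale. Testing was limited to genes above a dim limit, the 40th percentile of an array (3.46 to 3.50), on 4 or more of the 8 arrays. It took in 13449 genes, with all 8 thioesterases among them. Acot9 was the closest to the limit, with 3 of 4 wild type arrays and 4 of 4 knock-in arrays above it. Hepatocyte markers were high throughout, with a mean level over the 10 markers of 12.48 to 12.50 on wild type arrays and 12.50 to 12.54 on those of the knock-in. The knock-in replicate 3 array stood apart by pancreatic transcripts. Cela1, a pancreatic elastase, was at 10.84 there, at 4.24 to 4.91 on wild type arrays and at 4.75 to 5.27 on the other arrays of the knock-in. Cpa1, a pancreatic carboxypeptidase, was at 10.44 on that array, 4.78 on knock-in replicate 4 and 3.01 to 3.29 on the rest, so values without knock-in replicate 3 are given below where they matter. Of 39 tested markers in 9 lists of cell types, 0 passed by limma and 1 had an unadjusted p under 0.05. That unadjusted threshold took in 11.3% of all tested genes. The marker was Lyve1 of the sinusoidal endothelium, at 0.73 (SE 0.23). Of the 6 endothelial markers 3 lay above and 3 below 0, with a median of -0.0088. The 4 measured adipocyte markers were dim.

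Knock-in livers had no thioesterase past the threshold. By limma's moderated test, 0 of 8 had an adjusted p under 0.05 over all tested genes, where 0.0669% of all genes (9) did. At unadjusted p under 0.05, 1 of 8 was lower, Acot1, and 0 were higher, against 5.29% of all genes lower and 6.01% higher (11.3% in all). That count was not stable. It was 3 of 8 (Acot1, Acot2 and Acot12) without knock-in replicate 1 or with array weights, against 10.6% and 11.8% of all genes, and 3 of 7 with the stricter filter, against 14.1%. It was 2 of 8 without wild type replicate 2, with array medians subtracted or with a trended and robust prior. The shares of all genes there were 10.4%, 11.2% and 12.2%, in that order. Acot1 was in each of these member counts by limma. The largest differences, of knock-in minus wild type, were in the type I genes Acot2 and Acot1, at -0.82 and -0.71, and the other members lay between -0.22 and 0.32.

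**Figure D1:**
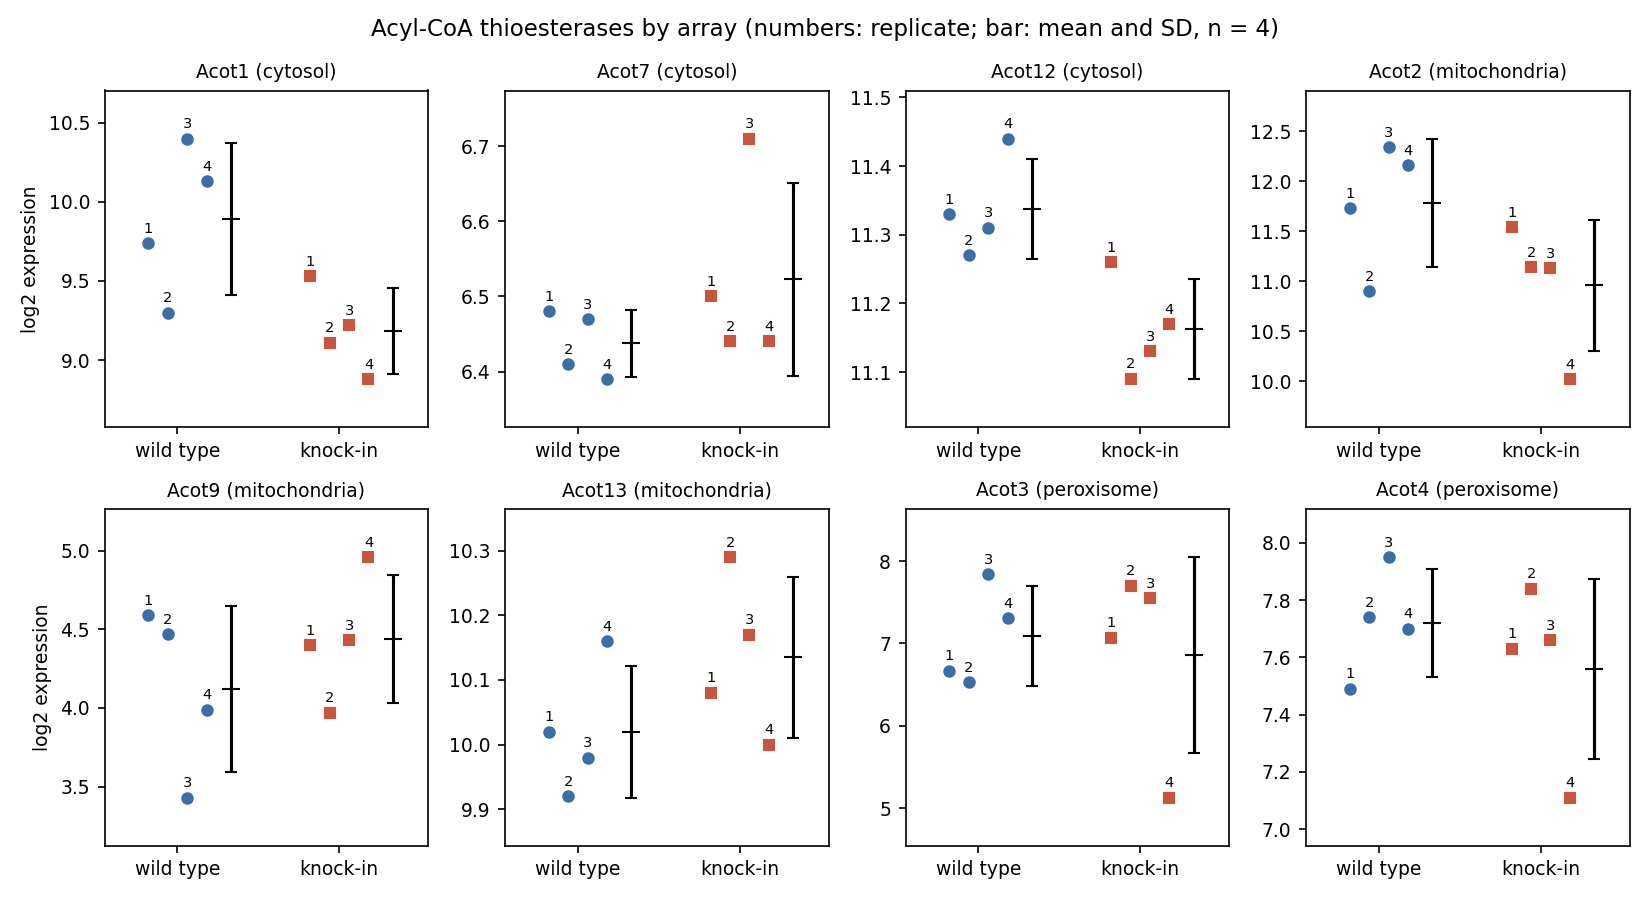
Log2 expression (vertical axes, each with its own range) of the 8 thioesterases in each wild type (blue circles) and knock-in (red squares) array; small numbers give the replicate and black bars the mean and SD of 4 arrays. Only in Acot12, among these 8 genes, do all 4 knock-in arrays lie below all 4 wild type arrays.

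Of the cytosolic enzymes, Acot1, which hydrolyses long-chain acyl-CoA, was at 9.74, 9.30, 10.40 and 10.13 in wild type replicates 1 to 4 and at 9.53, 9.11, 9.22 and 8.88 in knock-in replicates 1 to 4. Wild type replicate 2, at 9.30, lay below knock-in replicate 1, so the groups overlapped through this pair alone, and the knock-in array was the lower in 15 of the 16 pairs. Group means were 9.89 ± 0.48 and 9.19 ± 0.27 (SD, n = 4 each), and an exact two-sided permutation test gave p = 0.0571, where the smallest possible with 4 against 4 arrays is 0.0286. The change of -0.71 (SE 0.23, 95% interval -1.24 to -0.18) is 1.63-fold on the linear scale. It had limma unadjusted p = 0.0146 and adjusted p = 0.316, which placed Acot1 at rank 616 of 13449 tested genes. Without knock-in replicate 3 the change was -0.72, and over the fits that left out 1 array it ran from -0.54 to -0.90.

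Acot12, a cytosolic acetyl-CoA hydrolase of liver, was at 11.33, 11.27, 11.31 and 11.44 in wild type and at 11.26, 11.09, 11.13 and 11.17 in knock-in arrays. Its groups did not overlap, though the nearest arrays were close, knock-in replicate 1 at 11.26 and wild type replicate 2 at 11.27. Exact permutation p was 0.0286, the smallest possible. The change was small, -0.18 (SE 0.08, 95% interval -0.36 to 0.01), or 1.13-fold, with limma adjusted p = 0.453. Groups that do not overlap with the knock-in lower were seen in 3.2% of all tested genes (7.16% in either direction) and in 1 of these 8.

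Acot7, a cytosolic thioesterase best known from brain, was at 6.48, 6.41, 6.47 and 6.39 in wild type and at 6.50, 6.44, 6.71 and 6.44 in knock-in arrays. Its high array is knock-in replicate 3, the one with the pancreatic transcripts. The change was 0.08 (SE 0.09, limma adjusted p = 0.780) and without that array 0.02 (SE 0.08). Whether the pancreatic RNA has a part in the Acot7 value was not tested, and the 3 remaining knock-in arrays lay at 6.44 to 6.50.

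In mitochondria, Acot2, the matrix counterpart of Acot1, was at 11.73, 10.90, 12.34 and 12.16 in wild type and at 11.54, 11.14, 11.13 and 10.02 in knock-in arrays. The 3 highest arrays were wild type and the lowest was knock-in replicate 4, but wild type replicate 2 lay below 3 of the 4 knock-in arrays. The means were 11.78 ± 0.64 and 10.96 ± 0.65 (SD, n = 4), and the change of -0.82 (SE 0.38, 95% interval -1.68 to 0.04) had exact permutation p = 0.171 and limma adjusted p = 0.454. Without knock-in replicate 4 it was -0.51 (SE 0.32). Acot1 and Acot2 are near-identical in their coding sequence, so how far each probe set reads the other transcript is uncertain.

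Acot9, a mitochondrial thioesterase of the type II group, was at 4.59, 4.47, 3.43 and 3.99 in wild type and at 4.40, 3.97, 4.43 and 4.96 in knock-in arrays, near the dim limit, where changes are compressed. Its groups overlapped widely, and its change was 0.32 (SE 0.28, limma adjusted p = 0.727). The change was 0.15 without knock-in replicate 4 and 0.089 without wild type replicate 3, and over the fits that left out 1 array it ran from 0.089 to 0.47. Acot13, a mitochondria-associated thioesterase that binds the phosphatidylcholine transfer protein, was at 10.02, 9.92, 9.98 and 10.16 in wild type and at 10.08, 10.29, 10.17 and 10.00 in knock-in arrays. Its change of 0.12 (SE 0.10, limma adjusted p = 0.705, 95% interval -0.10 to 0.33) was within the spread of the arrays.

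In peroxisomes, Acot3, which acts on long-chain acyl-CoA, was at 6.67, 6.53, 7.84 and 7.31 in wild type and at 7.07, 7.70, 7.55 and 5.13 in knock-in arrays. Its SD of 1.19 in the knock-in was the widest of the 8 members. Knock-in replicate 4 lay 1.41 below the next lowest array, and its removal turned the change from -0.22 (SE 0.55, limma adjusted p = 0.925) to 0.35 (SE 0.32); removal of wild type replicate 3 gave 0.03. Acot3 therefore has no settled direction here. Acot4, which in mouse hydrolyses succinyl-CoA and other dicarboxylic acyl-CoA, was at 7.49, 7.74, 7.95 and 7.70 in wild type and at 7.63, 7.84, 7.66 and 7.11 in knock-in arrays. Its change of -0.16 (SE 0.17, limma adjusted p = 0.773) was -0.01 without knock-in replicate 4. A second probe set with the symbol of Acot4 alone was dimmer and went the other way, from 5.33 ± 0.31 to 5.48 ± 0.31 (SD, n = 4), a difference of 0.15, so the probe sets of Acot4 disagree in sign.

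**Figure D2:**
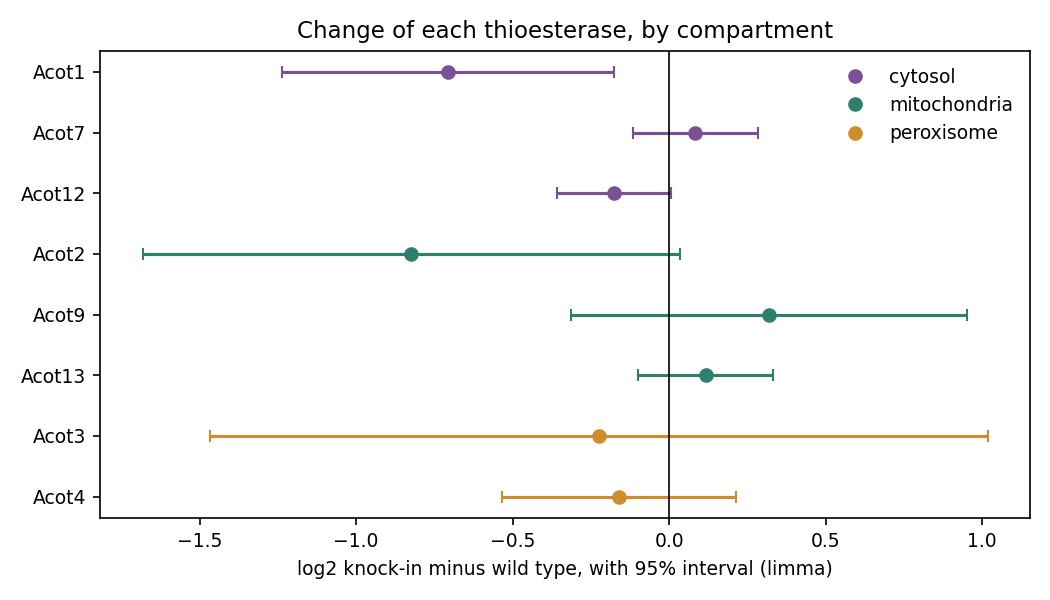
Change of each thioesterase in log2 units (horizontal axis, knock-in minus wild type, limma estimate with 95% interval, 4 against 4 arrays), coloured by the compartment of the enzyme. The interval lies wholly below 0 for Acot1, from -1.24 to -0.18, and spans 0 for the other 7 genes.

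Set side by side, the genes of a compartment did not share one direction in the cytosol or in mitochondria. The cytosolic genes were at -0.71, -0.18 and 0.08 (median -0.18), the mitochondrial ones at -0.82, 0.12 and 0.32 (median 0.12), and the peroxisomal pair at -0.22 and -0.16 (median -0.19). By family, the 4 type I members, Acot1 to Acot4, lay below 0, with a median of -0.47. Acot5 and Acot6, of the same run of genes on chromosome 12 but not members, lay above 0, at 0.10 and 0.28. Of the 4 type II members 3 lay above and 1 below, with a median of 0.10. Over all 8 members the median was -0.17, against 0.0046 over all tested genes, and 5 of 8 lay below 0, as did 48.9% of all tested genes. Without knock-in replicate 4 the median of the 8 was 0.05, that of the peroxisomal pair 0.17 and that of Acot1 to Acot4 -0.26, with 3 of those 4 below 0. Without knock-in replicate 3 these medians were -0.18, -0.32 and -0.59. No test was made of a compartment, since the members were chosen with results known.

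Acot1 to Acot4 shared their extremes. Each had its highest array in wild type replicate 3 and its lowest in knock-in replicate 4. Acot9 had its lowest in wild type replicate 3 and its highest in knock-in replicate 4. The next genes on the chromosome did not share these extremes. Acot5 was highest in wild type replicate 4 (4.13) and lowest in wild type replicate 2 (3.42), a value below the dim limit of that array, 3.48. Acot6 was highest in knock-in replicate 1 (5.31) and lowest in wild type replicate 2 (4.55). The extremes were not particular to thioesterases. Plpp3 and Abcd3, named below for likeness to Acot1, were highest in wild type replicate 3 (11.06 and 12.03). Both were lowest in knock-in replicate 4 (10.59 and 11.70). To set genotype aside, values were centred within each genotype and correlated over the 8 arrays for all 28 pairs of members, with exact permutation of arrays within genotype. Acot1 and Acot2 had Pearson r = 0.917 (exact p = 0.00347, adjusted 0.0972) and Spearman rho = 0.929 (exact p = 0.00694, adjusted 0.146). Without the 2 arrays farthest from the median, judged by the first-named gene of a pair alone, r was 0.887. Acot3 and Acot4 had r = 0.924 (exact p = 0.0174, adjusted 0.122) and rho = 0.881 (exact p = 0.0156, adjusted 0.146), and r = 0.958 without the 2 farthest arrays. Acot3 and Acot9 ran against each other, with r = -0.845 (exact p = 0.00694, adjusted 0.0972) and rho = -0.881 (exact p = 0.0139, adjusted 0.146), and r = -0.855 without the 2 farthest arrays. Acot4 and Acot9 did likewise, with r = -0.858 (exact p = 0.0104, adjusted 0.0972). For Acot1 and Acot2, r with Acot9 was -0.728 and -0.75. Acot9 lay near the dim limit, and its value in wild type replicate 3, 3.43, was below the limit of that array, 3.48. After adjustment over the 28 pairs 0 passed by either measure, and by exact permutation 5 had an unadjusted p under 0.05 by Pearson's r and 5 by Spearman's rho. All 6 pairs among Acot1 to Acot4 had a positive r, and it stayed positive without the 2 farthest arrays, at 0.387 to 0.958, though not always as large. Acot2 and Acot3 had r = 0.83 (exact p = 0.026, adjusted 0.146), which fell to 0.387 without them. Related probe sequences and the same arrays are common to these pairs, and their part in the correlations was not tested.

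**Figure D3:**
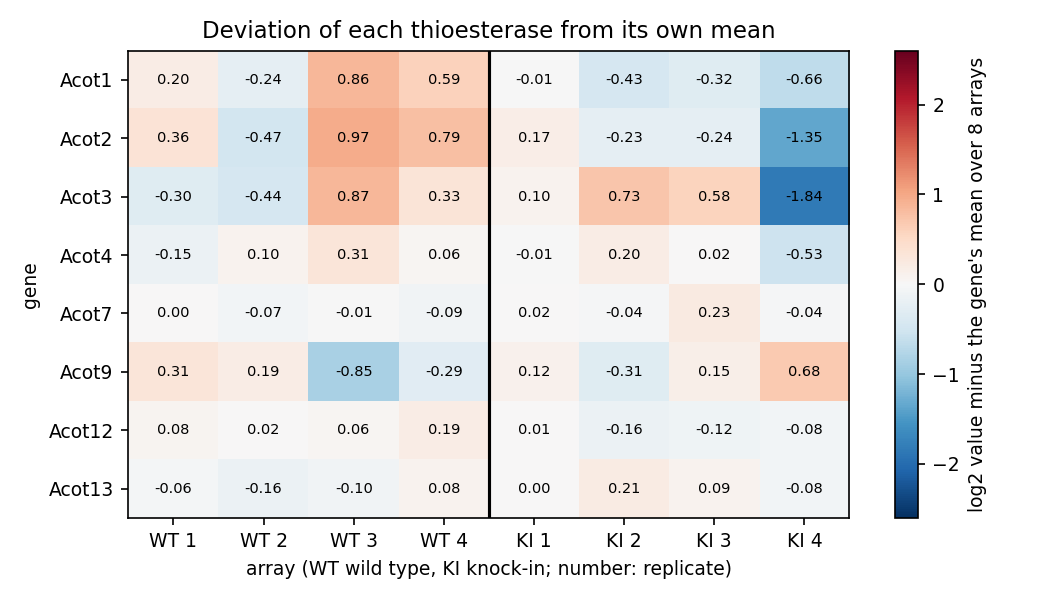
Each cell gives the log2 value of 1 thioesterase (row) on 1 array (column; WT wild type, KI knock-in) minus the gene's mean over the 8 arrays, red above and blue below it. Acot1 to Acot4 are reddest in wild type replicate 3 and bluest in knock-in replicate 4, where Acot3 was at 5.13, and Acot9 has the opposite pattern on those arrays. Acot9 lay near the dim limit, and below it in wild type replicate 3.

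Acot1 was the member whose likeness to other genes was examined by the rule for naming. The 5 tested genes nearest to it by Pearson r over the 8 arrays were Plpp3, a lipid phosphate phosphatase (0.988), Farp2 (0.982), Abcd3, the peroxisomal membrane transporter of acyl-CoA (0.973), Sufu, an inhibitor of Hedgehog signalling (0.969), and Crtc1, a coactivator of CREB (0.961). They are the nearest of all tested genes over only 8 arrays, and so a description without a p. With values centred within genotype, r was 0.934 to 0.978. Abcd3 itself was at -0.16 (SE 0.08, limma adjusted p = 0.494).

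Among genes that work beside the thioesterases, 0 passed over all genes. Of the other thioesterases and their relatives, 8 of 10 were tested; 6 lay above and 2 below 0, with a median of 0.13, and 0 had an unadjusted p under 0.05 (limma). Acot5 and Acot6, which follow Acot3 on the chromosome, were at 0.10 (SE 0.15) and 0.28 (SE 0.16), and the values of Acot5, 3.42 to 4.13, lay near the dim limit. Acot11, a thioesterase best known from brown fat, was at 0.43 (SE 0.19, limma adjusted p = 0.442). Acot10, a mouse copy of Acot9, was at 2.97 to 4.41, around the dim limit, so no direction is given for it.

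The synthetases that oppose thioesterases had 13 tested genes, 5 above and 8 below 0, with a median of -0.08. Acsm5, a medium-chain synthetase, was at 0.27 (SE 0.09, limma adjusted p = 0.310) and was the 1 member with an unadjusted p under 0.05, against 11.3% of all tested genes. Acsl1 and Acsl3 had no probe set of their own and were not analysed here. Of 12 genes of coenzyme A synthesis and breakdown, 8 lay above 0, with a median of 0.09, and 2 were higher and 0 lower at unadjusted p under 0.05 by limma, where 6.01% of all tested genes were higher and 5.29% lower. Nudt8, a mitochondrial hydrolase that degrades coenzyme A, was at 5.78, 5.49, 5.52 and 5.52 in wild type and at 6.26, 6.25, 5.85 and 5.97 in knock-in arrays, all knock-in arrays being higher (change 0.50, SE 0.12, limma adjusted p = 0.184). Pank4, of the pantothenate kinase family, was at 0.27 (SE 0.09, limma adjusted p = 0.333).

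PPARα targets other than thioesterases had 17 of 21 tested genes below 0 and a median of -0.10, beside 48.9% and 0.0046 over all tested genes. At unadjusted p under 0.05 by limma 4 were lower and 0 higher, against 5.29% and 6.01% of all tested genes. They were Pdk4, a kinase that blocks pyruvate oxidation, at -1.17 (SE 0.37), the hormone Fgf21 at -1.06 (SE 0.27), Ehhadh, of peroxisomal oxidation, at -0.43 (SE 0.11), and the droplet coat Plin2 at -0.39 (SE 0.14). Their limma adjusted p was 0.202 to 0.340. Cyp4a14, a PPARα target among the brightest genes, was at 12.86 to 12.96 on wild type and at 12.82 to 13.05 on knock-in arrays. Its change was -0.01 (SE 0.08). Differences near the top of the scale can be compressed, and whether this has a part in the Cyp4a14 values was not tested. Of 18 genes of peroxisomal fatty acid oxidation, where Acot3 and Acot4 work, 13 lay below 0, with a median of -0.11. At unadjusted p under 0.05 by limma 2 were lower, Crot and Ehhadh, which is also counted among the PPARα targets, and 1 was higher, against 5.29% and 6.01% of all tested genes. Crot, which passes medium-chain acyl groups from coenzyme A to carnitine for export from the peroxisome, was at 12.44, 12.62, 12.60 and 12.65 in wild type and at 12.09, 12.03, 12.08 and 12.32 in knock-in arrays, with no overlap (change -0.45, SE 0.09, limma adjusted p = 0.145). Pecr, a peroxisomal enoyl-CoA reductase, lay the other way at 0.41 (SE 0.12, limma adjusted p = 0.258). In bulk liver, fewer cells of a type and less RNA per cell cannot be told apart.

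**Figure D4:**
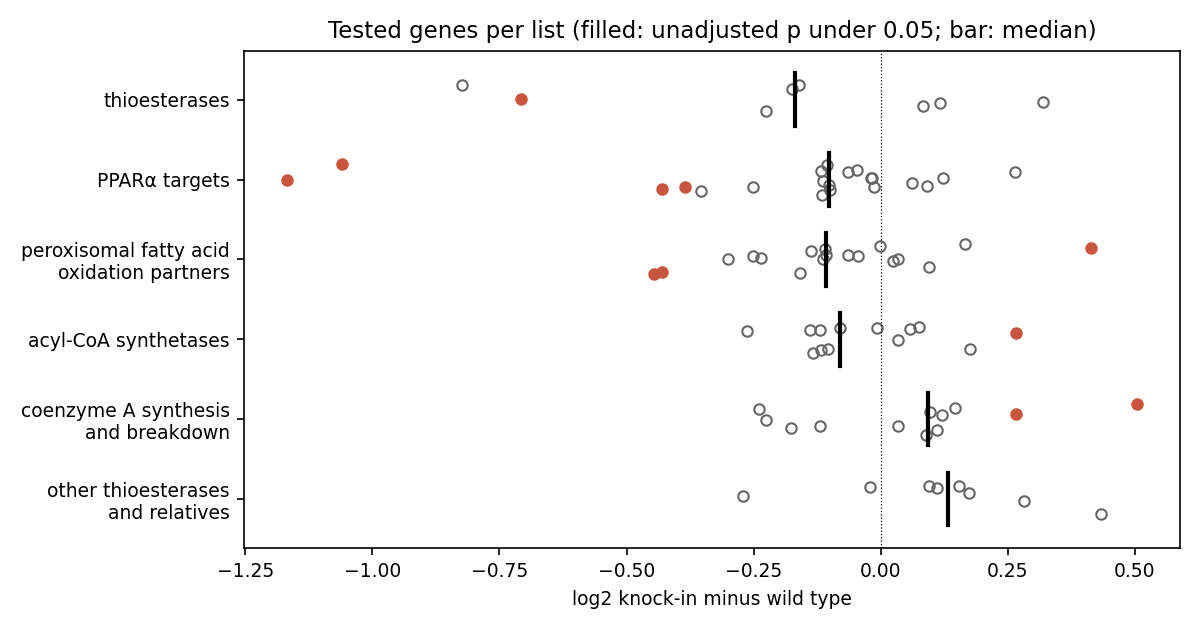
Change in log2 units (horizontal axis, knock-in minus wild type) of the 8 thioesterases and of the tested genes of 5 related lists (rows); filled points have a limma unadjusted p under 0.05, open ones do not, and bars mark medians. Medians are -0.17 for the thioesterases, -0.10 for PPARα targets and 0.13 for the other thioesterases.

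Clock genes differed along with genotype on the same arrays, though none past the threshold. Of 12 clock outputs and repressors 11 lay above 0, 8 of them at unadjusted p under 0.05 by limma, and all 3 activators lay below 0, each at unadjusted p under 0.05 by limma, and 0 passed over all genes; at that unadjusted threshold 6.01% of all tested genes were higher and 5.29% lower. Ciart, a clock repressor, was at 2.51 (SE 0.46), Per3 at 1.49 (SE 0.32), Bhlhe40 at 0.89 (SE 0.19) and Tef at 0.84 (SE 0.16). Of the activators, Npas2 was at -1.32 (SE 0.39), Arntl at -1.20 (SE 0.42), and Clock at -0.29 (SE 0.10). The clock score, the mean of outputs and repressors minus that of activators, was -1.38, -1.72, -1.08 and -0.17 in wild type and 0.23, 1.30, 1.21 and -0.44 in knock-in arrays, so the groups overlapped through wild type replicate 4 and knock-in replicate 4. With the score as a covariate, the change of Acot1 was -1.10 (SE 0.36), that of Acot2 -1.76 (SE 0.50), that of Acot3 -1.89 (SE 0.57) and that of Acot9 0.97 (SE 0.38), while 0 of 8 members passed (limma adjusted p of 0.629 to 0.992). In that fit 4 of 8 members (Acot1, Acot2, Acot3 and Acot9) had an unadjusted p under 0.05 by limma, where 6.64% of all genes did. The score separated the genotypes but for those 2 arrays, so this fit cannot part the clock from genotype. The labels give no hour of collection, and the part of the clock in the thioesterase values was not tested.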

How the data were processed

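Liver RNA of 4 wild type and 4 knock-in samples was measured on whole-transcript arrays, from 400 ng of total RNA each. The authors deposited log2 values for each probe set on each array. The submitters' processing notes name RMA and limma without versions. The build and annotation behind the authors' values are not stated there; promoter windows and gene order came from separate RefSeq tables of GRCm38.p6. RMA equalises the arrays' distributions and compresses changes of dim and of very bright probe sets. Precision is limited by the number of arrays.

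Of 41345 probe sets, the platform annotation gives 23521 a single symbol and 1814 several; 16010 are unnamed here. Entrez identifiers matched a RefSeq table for 23328 single symbols, and 0 symbols changed. The brightest probe set stood for each of 22180 genes, and 8731 dim genes were set aside. Genotypes were compared over the remaining 13449 genes by limma 3.58.1 in R 4.3.3 (genotype as the only term, Benjamini-Hochberg adjustment, two-sided, threshold 0.05), tested on simulated data. Single genes also had an exact permutation test over the 70 splits of 8 arrays. The thioesterases and the related lists were chosen with earlier results of these data known. All 8 measured members are named; of each list, up to 4 genes per direction with unadjusted p under 0.05, and other genes named (Cela1, Cpa1, Cyp4a14 and the thioesterases outside the 9) were named after values were seen. The alternatives were other filters, normalizations, priors, weights, a replicate block, a clock score as a covariate and leaving out each array.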

Additional observations from a re-analysis of the deposited data

Results flagged for a closer look

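In the 56 groups of 4 values examined (each gene named with its values under the naming rule, 3 pancreatic markers and the clock score, in each genotype), 4 held an array far from the others by Dixon's test, which marks about 1 in 20 groups by chance. None of the 16 groups of thioesterase values was among them. Nudt8 was at 5.78 in wild type replicate 1, where the nearest wild type array was at 5.52. Ciart was at 6.66 in wild type replicate 4, with the nearest at 5.29; that array also had the highest clock score of the wild type, -0.17. Cela1 was at 10.84 and Prss2, a pancreatic trypsinogen, at 7.96 in knock-in replicate 3, with the nearest knock-in arrays at 5.27 and 3.01. Without that array the change of Acot1 was -0.72 and that of Acot7 0.02.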

How the results depend on the processing

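Under each of the 17 alternatives, 0 thioesterases passed the threshold. Acot1, Acot2, Acot4, Acot7, Acot9 and Acot12 kept their sign in every alternative that gave a value, and Acot9 has none under the stricter filter, which leaves it out. For Acot4 the sign is not firm, since its change was only -0.006 with the mean of probe sets and -0.01 without knock-in replicate 4. Acot13 turned to -0.12 with the clock score in the fit, and Acot3 to 0.03 without wild type replicate 3 and 0.35 without knock-in replicate 4 (range -0.50 to 0.35 over the fits without 1 array); the cause was not tested. The median of the members moved to -0.36 with the clock score and ran from -0.21 to 0.051 over the fits without 1 array. Over all genes the 9 calls became 32 with the stricter filter, 2 with no filter, 24 with the mean of probe sets, 73 with a trended and robust prior, 25 with array weights and 1 with the clock score, and 1 to 12 without 1 array. With the replicate block there were 2; same-numbered samples share only a number, with correlations of their deviations from -0.105 to 0.101, and 2 of 8 arrays correlated best with their own number. The related lists had 0 genes past the threshold, 3 with the trended and robust prior and 0 to 1 without 1 array. The adjusted p of Acot1 ran from 0.200 to 0.718. With 4 arrays a group, the 95% interval of Acot3 spans -1.47 to 1.02, so changes of that size were not resolved there, and Acot9 lay too near the dim limit for its size to be read.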

Other observations

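Me1, the cytosolic malic enzyme that makes NADPH for fatty acid synthesis, was among the 5 tested genes nearest to both Acot3 (Pearson r = 0.968 over the 8 arrays) and Acot4 (0.950). It was picked after its values were seen, from all tested genes, so the likeness is a description with no test. Me1 was at 10.38, 10.40, 10.87 and 10.57 in wild type and at 10.50, 10.72, 10.56 and 9.99 in knock-in arrays, with its highest value in wild type replicate 3 and its lowest in knock-in replicate 4, the arrays in which Acot3 and Acot4 also had theirs. The genotypes overlapped, with a change of -0.12 (SE 0.17). With values centred within genotype, r was 0.972 with Acot3 and 0.952 with Acot4.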
